A study of Mesocricetus auratus with 21 samples.

Results

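Chd5, Chd7, Btbd18, Bnc1, Bnc2 and Atr are nuclear regulators with known roles in male germ cells or in chromatin, and here they are followed through testis development in golden hamsters (Mesocricetus auratus) with and without Mov10l1. The 6 genes were picked from the 22285 genes of the count table because each passed the threshold for a difference between genotypes at both 0 and 9 days postpartum (d.p.p.), Chd5 being lower in the knockout at both ages and the others higher at 0 d.p.p. and lower at 9 d.p.p. Those 2 ages are therefore given as a description without a test, and tests are read only at 13 d.p.p., at 21 d.p.p. and in adults. Mov10l1 encodes an RNA helicase needed to make piRNAs, the small RNAs that keep transposons silent in germ cells, and the study asked what its loss does to the hamster testis.

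RNA was sequenced from whole testes of Mov10l1+/+ (wild type) and Mov10l1-/- (knockout) males, with 2 libraries per genotype at 0, 9, 13 and 21 d.p.p. and in adults, and a further wild-type library at 9 d.p.p. The mutant allele lacks exon 20 and was made with CRISPR-Cas9, and the line descends from 1 female that passed the deletion on. The wild-type adults were 65 and 23 weeks old and the knockout adults 63 and 53 weeks old. Both knockout libraries of 9 d.p.p. carry 1 animal code, so their spread may be technical. They differed from each other by a chi-square of 30.3 per degree of freedom, as wild-type replicates 1 and 2 of that age did. That value cannot tell how many animals the libraries came from. The animal codes open with a part that several animals share and whose meaning the labels do not give, called the family code here. At 0 d.p.p. no family code holds both genotypes, at 9 d.p.p. wild-type replicate 3 shares that of the knockout animal, at 13 d.p.p. each wild type shares that of the knockout with the same replicate number, and at 21 d.p.p. wild-type replicate 2 shares that of knockout replicate 1. Apart from the knockouts of 9 d.p.p., each library carries an animal code of its own. The p-values measure the spread between the libraries of each comparison only.

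Chromatin remodellers of the CHD family use ATP to move or evict nucleosomes and so open or close genes. Chd5 is known from the mouse as a factor of maturing spermatids, in which histones are replaced before the nucleus condenses, whereas Chd7 acts in many embryonic tissues and is the gene altered in CHARGE syndrome. Btbd18 encodes a BTB-domain nuclear protein that lets RNA polymerase II elongate through a set of piRNA precursor genes in mouse spermatocytes. Bnc1 and Bnc2 encode the basonuclins, paired zinc-finger proteins; Bnc1 is found in germ cells and in the basal layer of epithelia, and Bnc2 in germ cells and widely in connective tissue. Atr encodes the kinase that answers stalled replication and, in meiosis, marks chromosome stretches that have not synapsed, the X and Y among them, for silencing.

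In the genome build of the deposited annotation (MesAur1.0), Chd5 lies on scaffold KB708217.1 from 4007376 to 4044160 on the minus strand and Chd7 on KB708135.1 from 4092555 to 4215485 on the plus strand. Btbd18 lies on KB708128.1 from 38788573 to 38794333 on the minus strand, and Atr on KB708229.1 from 5698523 to 5801226 on the plus strand. Bnc1 (KB708203.1, 7462587 to 7487328, minus strand) and Bnc2 (KB708250.1, 644692 to 1041503, plus strand) sit on different scaffolds, so none of the 6 genes shares a scaffold with another. Levels are given as CPM, counts scaled to a common library size over the 21 libraries; they are not divided by gene length and are compared between libraries, never between genes.

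The libraries held 3550217 to 77527451 counts, and the shallowest were the wild types of 13 d.p.p. (9278866 and 3550217) and wild-type replicate 1 of 21 d.p.p. (6549436). Libraries of 0 and 9 d.p.p. were read from one end over 75 nucleotides and the older ones from both ends over 150, so levels are compared across that border only as a description. Mov10l1 ranged from 18.2 to 138.9 CPM in wild types, from 10.2 to 10.8 CPM in knockouts of 0 d.p.p. and from 0.127 to 2.45 CPM in the older knockouts, and the genotypes did not overlap at any age; the gene-level count also takes in reads outside the deleted exon. The summed level of 6 germ cell markers (Ddx4, Dazl, Mael, Ddx25, Sall4 and Uchl1) was 326.7 to 391 CPM in wild types and 406 to 516 CPM in knockouts at 0 d.p.p., and 92.4 to 110.2 against 34.4 to 39.3 CPM at 9 d.p.p. It was 160.8 to 169.0 against 5.45 to 18.4 CPM at 13 d.p.p., 636 to 971 against 3.82 to 3.93 CPM at 21 d.p.p. and 3210 to 3682 against 31.1 to 37.4 CPM in adults, and none of the 6 markers was without counts in a group. The 6 markers came from the study's tables of genes that differed in these or oocyte samples. Their sums are therefore no independent measure of germ cell number. In whole testis, fewer germ cells and less RNA of a gene per germ cell cannot be told apart, and this bears on every difference below.

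**Figure D1:**
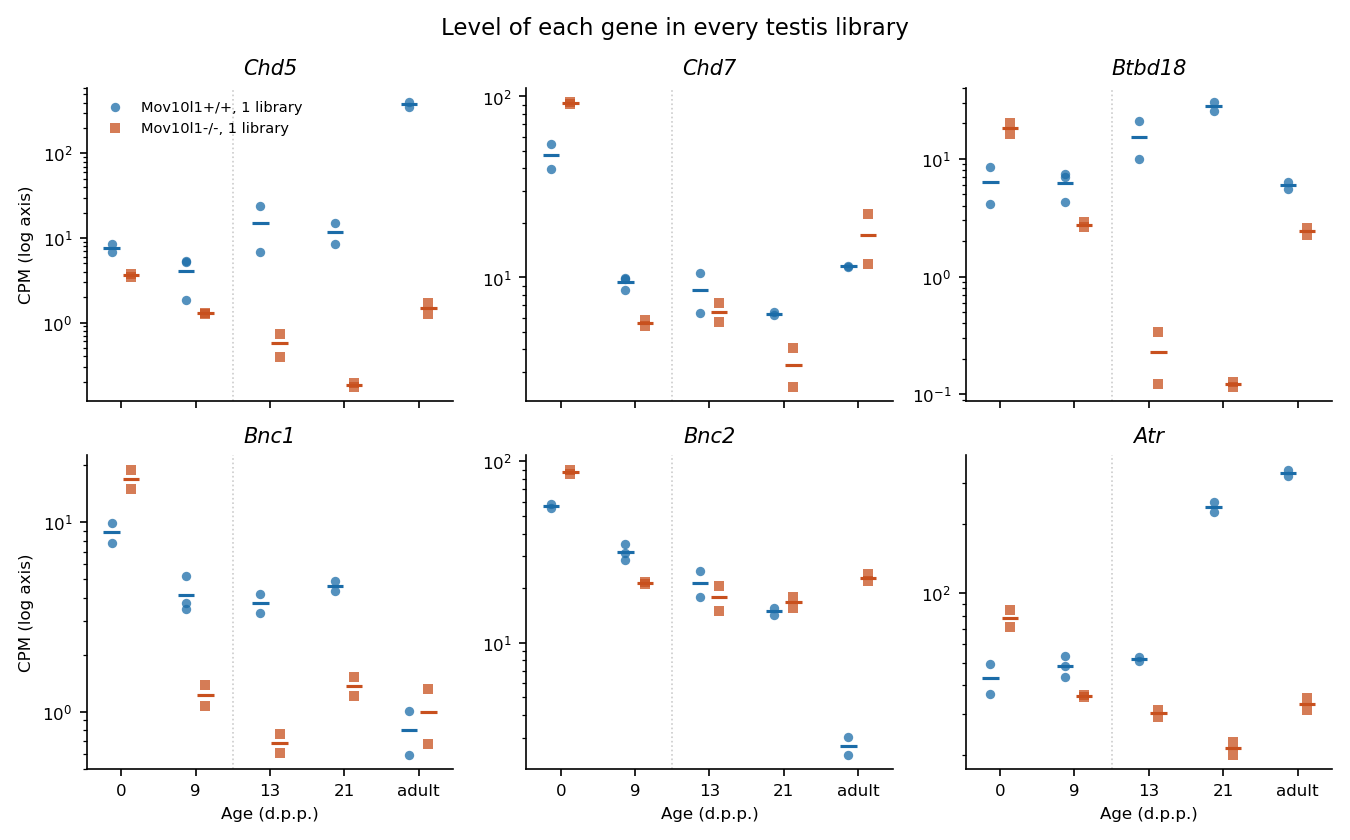
Level of each of the 6 genes in every library, in CPM on a log axis, by age in d.p.p.; each point is 1 library, short bars are group means, and the dotted line separates the ages read from one end (left) from those read from both ends. Chd5 reached 353 and 408 CPM in wild-type adults against 1.28 and 1.68 CPM in knockout adults, while Bnc2 was lowest in wild-type adults, at 3.01 and 2.41 CPM.

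At 0 d.p.p., the age at which the testis holds resting gonocytes, Chd5 stood at 6.88 and 8.40 CPM in the wild types and at 3.75 and 3.46 CPM in the knockouts, a log2 fold change of -1.09 (SE 0.190). The other 5 genes were higher in both knockouts than in both wild types. Btbd18 differed most, with 8.58 and 4.10 CPM in the wild types against 20.2 and 16.3 CPM in the knockouts (log2 fold change 1.47, SE 0.251; 2.13 without wild-type replicate 1 and 1.09 without wild-type replicate 2), and Bnc2 least, with 58.3 and 55.4 against 84.7 and 90.0 CPM (0.61, SE 0.111). Between these came Chd7 with 54.6 and 39.9 against 90.9 and 93.5 CPM, Bnc1 with 9.92 and 7.74 against 18.9 and 15.0 CPM, and Atr with 49.6 and 36.5 against 85.1 and 71.2 CPM. All 6 passed the threshold in the edgeR fit, as their choice requires, where 1.93% of the 16333 genes tested did, 0.931% lower and 1% higher in the knockout. The libraries of the genotypes were also apart for all 6, as they were for 52.9% of the genes tested. Both knockouts carry the same family code, which neither wild type has, so family code and genotype cannot be told apart at this age.

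At 9 d.p.p., when the germ cells become spermatogonia, all 6 genes were lower in both knockout libraries than in wild-type replicates 1 and 2. Chd5 stood at 5.22 and 5.31 CPM in these wild types and at 1.29 and 1.28 CPM in the knockouts (log2 fold change -2.07, SE 0.133), and Bnc1 at 5.20 and 3.74 against 1.07 and 1.39 CPM (-1.89, SE 0.203). Btbd18 measured 7.50 and 7.01 against 2.62 and 2.89 CPM (-1.43, SE 0.118) and Chd7 9.97 and 9.76 against 5.82 and 5.41 CPM (-0.85, SE 0.104). The smallest differences were those of Bnc2, with 35.1 and 31.4 against 21.0 and 21.5 CPM (-0.68, SE 0.0750), and Atr, with 53.6 and 48.2 against 35.6 and 36.4 CPM (-0.53, SE 0.0715). All 6 again passed the threshold by their choice, beside 3.74% of 15569 genes (3.19% lower, 0.559% higher), and 65 genes in all passed it at both ages; libraries were apart for 62.5% of the genes tested.

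The third wild-type library of 9 d.p.p. (replicate 3) carries the family code of the knockout animal. For each of the 6 genes it lay nearer to the knockouts than wild-type replicates 1 and 2 did. For Chd7, Bnc1 and Bnc2 it was still closer in CPM to those wild types than to the knockouts. It held 1.84 CPM of Chd5, 8.49 of Chd7, 4.30 of Btbd18, 3.49 of Bnc1, 28.7 of Bnc2 and 43.2 of Atr, each below the other wild types and above both knockouts. Set alone against the knockouts, it gave log2 fold changes of -0.57 for Chd5, -0.65 for Chd7, -0.69 for Btbd18, -1.55 for Bnc1, -0.48 for Bnc2 and -0.31 for Atr. Wild-type replicates 1 and 2 carry a different family code from the knockouts, so family code and genotype cannot be told apart in the comparison of 4 libraries. The fit of all 5 libraries gave -1.72 for Chd5 and -1.22 for Btbd18.

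Between 0 and 9 d.p.p. the levels also changed by different amounts within the genotypes, again as a description of the libraries that chose the genes. In knockouts all 6 levels were lower at 9 d.p.p., by log2 values from -4.01 for Chd7 and -3.75 for Bnc1 to -1.09 for Atr. In wild types Chd7 was lower as well, at -2.24 on the log2 scale, Bnc1 at -0.96, Bnc2 at -0.75 and Chd5 at -0.50, whereas Atr (0.26) and Btbd18 (0.18) were slightly higher. With wild-type replicate 3 added, Btbd18 moved to -0.019 and Chd5 to -0.84.

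At the ages that did not enter the choice, the 6 genes parted. At 13 d.p.p. none of the 6 was called at an adjusted p below 0.01 in the edgeR quasi-likelihood test of the 4 libraries of that age, where only 0.121% of 13254 genes were called; 4 of the 6 had an unadjusted p below 0.05 and 2 were called by DESeq2. With replicate number as a block, which at this age joins animals with the same family code, 3 of the 6 were called. At 21 d.p.p. 4 of the 6 fell in the knockout and none rose, beside 38% of 14834 genes called, 20.9% lower and 17.1% higher. In adults 3 fell and Bnc2 rose, beside 74.4% of 15761 genes called (37.2% lower, 37.1% higher), so the share of the 6 that was called lay close to the background there. The median log2 fold change of the 6 genes was -1.72 at 13 d.p.p., -2.77 at 21 d.p.p. and -0.49 in adults, against 0.02, 0.04 and 0.14 over all genes tested. Scaling by library totals would move the median of all genes by -0.21 at 21 d.p.p. and by 0.16 in adults relative to the TMM scaling used.

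**Figure D2:**
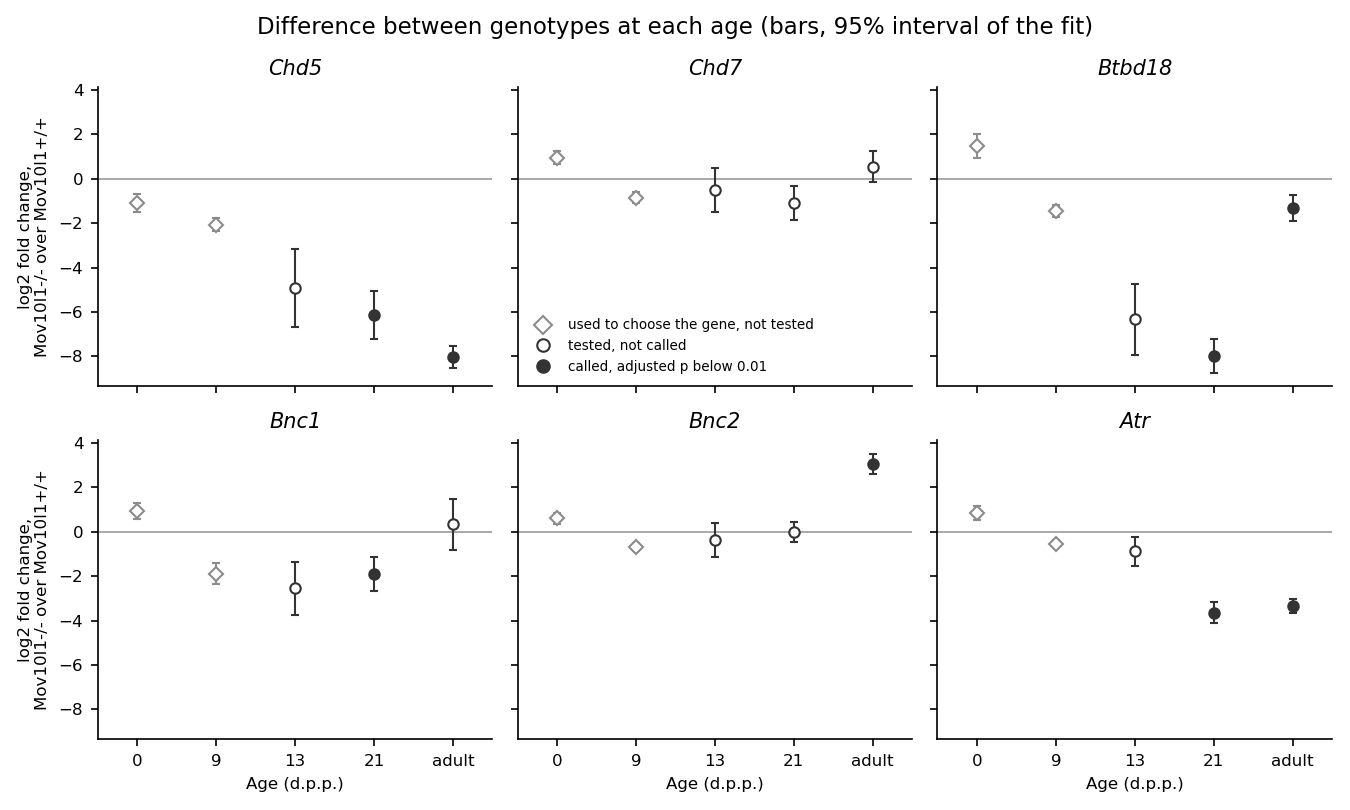
Log2 fold change of the knockout over the wild type for each gene by age in d.p.p., with the 95% interval of the edgeR fit; diamonds mark the ages that chose the genes, open circles tested values that were not called and filled circles values called at an adjusted p below 0.01. Chd5 went from -1.09 at 0 d.p.p. to -8.01 in adults, Btbd18 was lowest at 21 d.p.p. with -7.96, and Bnc2 stood at 0.00 to 2 decimals at 21 d.p.p. and at 3.04 in adults.

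Chd5, the remodeller of spermatids, had the largest difference of the 6 genes in adults. Among all 15761 genes tested in adults it ranked 787 from the most negative. At 13 d.p.p. the wild types held 6.79 and 23.6 CPM and the knockouts 0.738 and 0.396 CPM. The groups were far apart, but the wild types also differed from each other by more than the knockouts did, and the log2 fold change of -4.92 (SE 0.755) was not called (edgeR adjusted p = 0.0258). Its size depended on single libraries, at -5.61 without wild-type replicate 1 and -3.69 without the shallow wild-type replicate 2. It was -5.36 without knockout replicate 1 and -4.41 without knockout replicate 2. The knockouts held 24 counts in all against 168 in the wild types, a ratio of 23.5 with a 95% counting interval from 15.2 to 37.6. In wild types of 21 d.p.p. Chd5 stood at 15.1 and 8.39 CPM, and in knockouts at 0.191 and 0.173 CPM, a log2 fold change of -6.13 (SE 0.471, edgeR adjusted p = 5.67e-05). The knockout libraries of 21 d.p.p. rested on 9 counts of Chd5 in all, so the ratio of wild type to knockout of 59.8 has a 95% counting interval from 31.0 to 132. In adults the wild types held 353 and 408 CPM and the knockouts 1.28 and 1.68 CPM, a log2 fold change of -8.01 (SE 0.207, adjusted p = 1.60e-07).

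The adult difference of Chd5 went with a rise in the wild type. From 13 to 21 d.p.p. the wild-type level overlapped between ages (log2 change -0.41, SE 0.468, adjusted p = 0.579), and from 21 d.p.p. to adults it rose, with a ratio of mean CPM of 32.5 and a fitted log2 change of 4.82 (SE 0.495, adjusted p = 5.38e-06); the fit of 12 libraries has its own scaling, so here and below a ratio of mean CPM and a fitted change with age are not the same quantity. Without wild-type replicate 1 of 21 d.p.p. this rise came to 5.46. In knockouts the level went from 0.182 ± 0.0126 (SD, n = 2) to 1.48 ± 0.285 CPM, a log2 change of 2.92 (SE 0.737) that was not called (adjusted p = 0.0128). The difference between these changes was -1.90 (SE 1.04, 95% interval -4.17 to 0.37, adjusted p = 0.154), so a change of the genotype effect from 21 d.p.p. to adults was not shown.

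Chd7, the more widely used remodeller, was not called between genotypes at any of the 3 ages. The wild types held 6.39 and 10.6 CPM at 13 d.p.p. and the knockouts 7.25 and 5.66 CPM, which overlap (log2 fold change -0.49, SE 0.425, adjusted p = 0.679). In wild types of 21 d.p.p. Chd7 stood at 6.43 and 6.18 CPM and in knockouts at 2.49 and 4.07 CPM; the groups did not overlap, but -1.09 (SE 0.323) missed the threshold at an adjusted p of 0.0218. It was called at -1.16 with at least 10 counts in every library (adjusted p = 0.00785). It was also called at -1.14 with a crossed pairing, chosen after the data were seen (adjusted p = 0.00307). That pairing joins wild-type replicate 2 with knockout replicate 1, which share a family code. It also joins wild-type replicate 1 with knockout replicate 2, which do not. In adults the order turned, with 11.4 and 11.6 CPM in wild types and 22.3 and 11.9 CPM in knockouts (0.55, SE 0.299, adjusted p = 0.124). That value rests on knockout replicate 1: without knockout replicate 2 the log2 fold change was 0.94 and was called (adjusted p = 0.00552), and without replicate 1 it was 0.02.

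Within the knockouts Chd7 rose from 21 d.p.p. to adults, with a ratio of mean CPM of 5.22 and a fitted log2 change of 2.26 (SE 0.366, adjusted p = 0.00100), while the wild-type change of 0.65 (SE 0.364) was not called (adjusted p = 0.139). The call in the knockouts was lost without replicate 1 of 21 d.p.p. (1.98, adjusted p = 0.0149) or without adult replicate 1 (1.73, adjusted p = 0.0125). The difference between the genotypes' changes was 1.62 (SE 0.510) and was not called (adjusted p = 0.0214).

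Btbd18, the factor for transcription of piRNA precursors, had the largest difference of the 6 genes at 13 and at 21 d.p.p. At 13 d.p.p. the wild types held 9.88 and 21.0 CPM and the knockouts 0.336 and 0.122 CPM, far from overlapping. The log2 fold change of -6.33 (SE 0.700) ranked 16 from the most negative among 13254 genes but just missed the threshold (adjusted p = 0.0105). The knockouts held 9 counts in all against 188 in the wild types, a ratio of 70.0 with a counting interval from 36.1 to 155. In wild types of 21 d.p.p. Btbd18 stood at 30.5 and 25.4 CPM and in knockouts at 0.127 and 0.116 CPM, a log2 fold change of -7.96 (SE 0.330, adjusted p = 7.13e-06). Here 6 counts in the knockouts stood against 638 in the wild types, a ratio of 228 with a counting interval from 104.1 to 623.

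In adults the Btbd18 difference was smaller, with 6.41 and 5.49 CPM in wild types and 2.60 and 2.26 CPM in knockouts, a log2 fold change of -1.32 (SE 0.242, adjusted p = 0.00171) that was not called without knockout replicate 2 (adjusted p = 0.0146). The genotypes had moved toward each other from both sides. The wild-type level fell from 21 d.p.p. to adults (ratio of mean CPM of 21 d.p.p. over adults 4.70, fitted log2 change -2.45, SE 0.352, adjusted p = 8.09e-05) and the knockout level rose, by 4.18 on the log2 scale (SE 0.555, adjusted p = 0.000269; 0.0102 without knockout replicate 2 of 21 d.p.p.). The difference between these changes, 6.63 (SE 0.651), was called (adjusted p = 1.38e-05) and stayed called without each of the 8 libraries in turn. Other germ cell genes did likewise. Over the same span 5 of the 6 germ cell markers rose in knockouts and none fell (median log2 change 3.73), beside 7.69% of all genes. Of 15 piRNA pathway genes 8 rose and none fell (median 2.94). Mov10l1 rose by 3.91 (SE 0.752, adjusted p = 0.00284). The genotype effect on Mov10l1 also differed between these ages, by 5.21 (SE 0.866, adjusted p = 0.000576). Between 13 and 21 d.p.p. no change of Btbd18 was called in either genotype, the wild-type change being 0.80 (SE 0.346, adjusted p = 0.118); without the shallow wild-type replicate 2 of 13 d.p.p. it was 1.52 and called (adjusted p = 0.00518).

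Bnc1, the basonuclin of germ cells and epithelia, was low in all libraries from 13 d.p.p. on. At 13 d.p.p. the wild types held 4.19 and 3.31 CPM and the knockouts 0.604 and 0.761 CPM. These did not overlap, and the log2 fold change of -2.54 (SE 0.513) was not called (adjusted p = 0.0655). In wild types of 21 d.p.p. Bnc1 stood at 4.33 and 4.88 CPM and in knockouts at 1.21 and 1.53 CPM, a log2 fold change of -1.90 (SE 0.338, adjusted p = 0.00231). That call was lost without knockout replicate 1 (adjusted p = 0.0121) or without knockout replicate 2 (0.0112). In adults the 4 libraries overlapped, with 0.593 and 1.005 CPM in wild types and 1.32 and 0.673 CPM in knockouts (0.33, SE 0.485, 95% interval -0.83 to 1.49, adjusted p = 0.543). From 21 d.p.p. to adults the wild-type level fell (ratio of mean CPM of 21 d.p.p. over adults 5.76, fitted log2 change -2.79, SE 0.447, adjusted p = 0.000188), whereas the knockout change was -0.58 (SE 0.423, adjusted p = 0.347), and the difference of 2.21 between them (SE 0.614) was not called (adjusted p = 0.0116).

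Bnc2, the basonuclin that is also common in connective tissue, was the gene of the set that rose in the adult knockout. Wild types of 13 d.p.p. held 24.9 and 18.0 CPM and the knockouts 20.6 and 14.9 CPM, which overlap (log2 fold change -0.38, SE 0.337, adjusted p = 0.688). In wild types of 21 d.p.p. Bnc2 stood at 14.2 and 15.5 CPM and in knockouts at 15.6 and 17.8 CPM. The groups did not overlap but were close in level (ratio of mean CPM 1.12). The fit of the 4 libraries of that age has its own scaling and gave a log2 fold change of -0.0046. Its 95% interval ran from -0.46 to 0.45 (adjusted p = 0.987). In adults the wild types held 3.01 and 2.41 CPM and the knockouts 21.9 and 23.8 CPM, a ratio of mean CPM of 8.44 (fitted log2 fold change 3.04, SE 0.194, adjusted p = 6.88e-06). The wild-type level fell from 21 d.p.p. to adults (ratio of mean CPM of 21 d.p.p. over adults 5.49, fitted log2 change -2.67, SE 0.267, adjusted p = 4.25e-06). In knockouts the change over the same span was 0.36 (SE 0.234, adjusted p = 0.292), and the difference between the changes, 3.03 (SE 0.354), was called (adjusted p = 5.16e-05) and stayed called without each of the 8 libraries in turn.

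The summed markers of Sertoli cells and of smooth muscle were higher in knockouts than in wild types at 21 d.p.p. and in adults. At 21 d.p.p. Bnc2 was not called. Of the 5 smooth muscle and peritubular markers, none was called higher at that age and 1 was called lower. The summed level of 6 Sertoli cell markers went from 1908 to 1964 CPM in wild types of 21 d.p.p. to 738 to 1004 CPM in wild-type adults, and from 6304 to 6537 CPM to 5658 to 6206 CPM in the knockouts. The 5 smooth muscle and peritubular markers went from 310.4 to 312.5 CPM to 119.0 to 121.8 CPM in wild types and from 411 to 440.2 CPM to 254.7 to 270.1 CPM in knockouts. In wild-type adults both sums and Bnc2 were thus lower than at 21 d.p.p. In knockouts both sums were lower in adults as well, and the change of Bnc2 was not called. In adults the steroidogenic markers summed to 81.8 to 92.9 CPM in wild types and 669 to 857 CPM in knockouts, and the leukocyte markers to 42.3 to 50.6 and 186.2 to 194.5 CPM. Of the 2 steroidogenic markers, CYP11A1 alone averaged 25.2 CPM in wild-type adults and 700 CPM in knockout adults. At 21 d.p.p. the steroidogenic sums were already 126.7 to 144.5 CPM in wild types and 451 to 570 CPM in knockouts. The leukocyte sums were 47.3 to 50.1 and 148.2 to 168.5 CPM at that age. None of these markers was without counts in a group, and their part in the Bnc2 difference was not tested.

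Atr, the kinase of replication stress and of unsynapsed chromosomes, fell at 21 d.p.p. and in adults by close to the same amount. At 13 d.p.p. the wild types held 50.7 and 52.9 CPM and the knockouts 31.3 and 29.2 CPM; they did not overlap, and -0.89 (SE 0.291) was not called (adjusted p = 0.298). In wild types of 21 d.p.p. Atr stood at 248 and 226 CPM and in knockouts at 22.7 and 19.9 CPM, a log2 fold change of -3.65 (SE 0.207, adjusted p = 1.66e-05). In adults the wild types held 322 and 344 CPM and the knockouts 31.3 and 35.1 CPM, a log2 fold change of -3.35 (SE 0.134, adjusted p = 8.37e-07). The wild-type mean was 11.1 times the knockout mean at 21 d.p.p. and 10.0 times in adults.

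In the wild type Atr rose between 13 and 21 d.p.p. (ratio of mean CPM 4.57, fitted log2 change 2.11, SE 0.197, adjusted p = 4.80e-05), the later of which is the age when hamster spermatocytes reach pachytene. In knockouts the change was -0.57 (SE 0.190) and was not called by edgeR (adjusted p = 0.0674), whereas DESeq2 called it (adjusted p = 0.00936). The difference between the changes, -2.68 (SE 0.272), was called (adjusted p = 0.000278) and stayed called without each of the 8 libraries in turn. From 21 d.p.p. to adults neither genotype changed beyond the threshold in edgeR, with 0.27 (SE 0.186, adjusted p = 0.226) in the wild type and 0.55 (SE 0.190, adjusted p = 0.0515) in the knockout. DESeq2 called both changes (adjusted p = 0.00656 in the wild type and 0.00468 in the knockout).

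**Figure D3:**
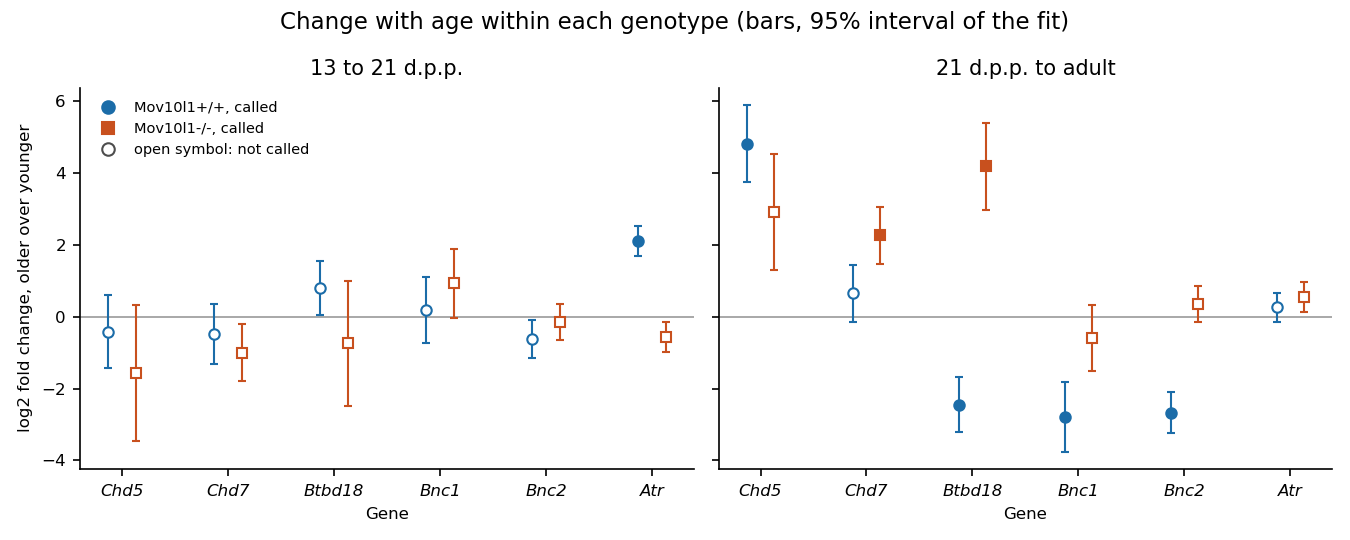
Log2 change of each gene from 13 to 21 d.p.p. (left) and from 21 d.p.p. to adults (right), circles for wild types and squares for knockouts, filled where called at an adjusted p below 0.01, with 95% intervals. On the left only the wild-type Atr value of 2.11 is filled; on the right Btbd18 lies at -2.45 in the wild type and at 4.18 in the knockout.

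Counted over the 6 genes, the change from 13 to 21 d.p.p. was called for 1 gene in the wild type, upward, beside 12.7% of the 16568 genes of the joint fit of 12 libraries (6.4% upward, 6.32% downward). It was called for none in the knockout, beside 5.52% of genes (2.77% upward, 2.75% downward), where 2 of the 6 had an unadjusted p below 0.05 and 1 was called by DESeq2. From 21 d.p.p. to adults 4 of the 6 changed in the wild type, 3 of them downward, beside 48% of genes (24.1% downward, 23.9% upward), and 2 changed in the knockout, both upward, beside 13.1% (7.69% upward, 5.41% downward). The genotype effect itself differed between 13 and 21 d.p.p. for 1 of the 6, beside 4.04% of genes (3.43% downward, 0.61% upward), and between 21 d.p.p. and adults for 2, both upward, beside 29.8% (15% upward, 14.9% downward).

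The calls at 13 d.p.p. differed between fits. In the joint fit of the 12 libraries read from both ends, 3 of the 6 genes were called at that age, Chd5 at -4.81, Btbd18 at -6.26 and Bnc1 at -2.47, with adjusted p of 0.000543, 3.42e-05 and 0.00843, and 342 genes were called in place of 16. With the replicate block the same 3 were called, at -4.78, -6.34 and -2.55, among 477 genes. Chd5 and Btbd18 were also called without any 1 of the 4 libraries, in fits that take the spread from the group still holding 2 libraries and assume that the lone library varies alike. Since the full set of 4 libraries did not give these calls, they show no stability of the result. At this age 4 of the 6 genes had genotypes that did not overlap, where 49% of the genes tested did; at 21 d.p.p. it was 6, beside 81.9%, and in adults 5, beside 92.4%.

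Ordered by mean level, Chd5 had wild-type adults at the top, apart from all other groups, and knockouts of 21 d.p.p. at the bottom. Its wild types of 13 and 21 d.p.p. overlapped, and wild types of 0 d.p.p. lay below them without a clear gap from those of 21 d.p.p. Atr had the same top group, followed by wild types of 21 d.p.p., knockouts of 0 d.p.p. and then wild types of 13, 9 and 0 d.p.p., which overlapped their neighbours, with the 4 older knockout groups below all of these. Btbd18 peaked in wild types of 21 d.p.p. (28.0 ± 3.61 CPM, SD, n = 2), ahead of knockouts of 0 d.p.p. (18.2 ± 2.79 CPM) and wild types of 13 d.p.p. (15.5 ± 7.89 CPM), which overlapped each other. For Chd7, Bnc1 and Bnc2 the knockouts of 0 d.p.p. were highest, at 92.2 ± 1.85, 16.97 ± 2.78 and 87.3 ± 3.73 CPM, each above the wild types of 0 d.p.p., which came second; the ages are compared here across 2 read formats.

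Across the 21 libraries, Chd5 and Atr moved together most closely among the 15 pairs of the set, with a Pearson r of 0.85 on log2(CPM + 0.5), and Bnc1 and Bnc2 followed at 0.74 and Chd7 and Bnc1 at 0.70. The most opposed pair was Chd5 and Bnc2, at -0.54. These are descriptions over libraries that share groups, ages and read formats. Among 1041 other genes for which the study's tables give a symbol, which were listed there for differences in these or oocyte samples, Atr was most like Pbp2 (0.98), Hsf2bp (0.97) and Dync2h1 (0.97), and Chd5 most like Cfap58 (0.97), Uaca (0.97) and Plcl2 (0.96). Hsf2bp encodes a meiotic recombination protein, and Cfap58 and Dync2h1 encode proteins of cilia and flagella. Btbd18 was most like Dcaf8l (0.97), Tex16 (0.95) and the spermatogonial transcription factor Sohlh1 (0.94), and Bnc1 most like Thada (0.96), Pramel1 (0.94) and Abcc8 (0.94). Bnc2 was most like Med23 (0.95), Fndc4 (0.95) and Dysf (0.94), and Chd7 most like Pxk (0.92), Zfhx3 (0.92) and CUNH10orf76 (0.91). On the 12 libraries of the older ages alone, 6 of these 18 genes were named again, none of them for Chd7.

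Genes of the same functions, taken from the study's lists and so likewise chosen on samples of this study, are set beside the 6. Their counts stand against 20.9% of all genes tested called lower and 17.1% called higher at 21 d.p.p., and 37.2% and 37.1% in adults. Of 24 other chromatin regulators, 12 fell and 2 rose at 21 d.p.p., with a median log2 fold change of -0.997, and in adults 12 fell and 10 rose (median -0.36). At 13 d.p.p. edgeR called none of the 24, where 8 had an unadjusted p below 0.05 and DESeq2 called 4. Brdt, the bromodomain protein of spermatocytes and spermatids, fell from 74.7 ± 44.2 to 0.648 ± 0.105 CPM at 21 d.p.p. (log2 -6.96, adjusted p = 4.75e-05) and to a log2 fold change of -7.39 in adults, and Morc1, a germ line silencing factor, fell by 5.70 at 21 d.p.p. The histone variant gene Macroh2a2 fell by 6.45 in adults. Tet1, which oxidizes methylated cytosine, and Smarcd3, a SWI/SNF subunit, rose at both ages, by 1.62 and 1.49 at 21 d.p.p. and by 2.88 and 3.98 in adults on the log2 scale. Chd5 in adults (-8.01) lay beyond every gene of this list, the most negative of which was Brdt.

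Of 13 germ line transcription factors, 8 fell and 2 rose at 21 d.p.p. (median -4.28), and 6 fell and 3 rose in adults (median -0.23). At 13 d.p.p. 2 of the 12 that passed the filter on low counts fell, where 8 had an unadjusted p below 0.05 and DESeq2 called 7. Sox30, a factor of spermatocytes and spermatids, had log2 fold changes of -9.07 at 21 d.p.p. and -7.16 in adults, Sohlh1 of -7.22 at 21 d.p.p., and Tcfl5, a factor of meiotic cells, of -4.84 in adults. Mycn and Etv5, both known in spermatogonia and Etv5 in Sertoli cells too, rose by 1.95 and 1.21 at 21 d.p.p. and by 2.85 and 2.01 in adults. Btbd18 at 21 d.p.p. (-7.96) lay between Sox30 and Sohlh1.

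Of 25 genes of DNA damage and meiotic recombination, the setting in which Atr works, 19 fell and 2 rose at 21 d.p.p. (median -2.98) and 16 fell and 3 rose in adults (median -2.26). At 13 d.p.p. edgeR called none of the 25, where 15 had an unadjusted p below 0.05 and DESeq2 called 13. Hormad1, a protein of meiotic chromosome axes, had log2 fold changes of -10.32 at 21 d.p.p. and -5.64 in adults, Majin, which ties telomeres to the nuclear envelope in meiosis, of -9.59 at 21 d.p.p., and Syce1, of the synaptonemal complex, of -6.44 in adults. Gadd45a, a stress-induced gene, and Inip, part of a DNA repair complex, rose, by 1.28 and 0.97 at 21 d.p.p. and by 3.01 and 1.64 in adults. In the wild type 11 of the 25 rose from 13 to 21 d.p.p., the span in which Atr rose, and none fell, beside 6.4% upward and 6.32% downward over all genes.

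All 15 genes of the piRNA pathway fell at 21 d.p.p. (median -8.40) and in adults (median -5.13), the steepest being Ddx4, an RNA helicase of germ cells, at -10.20 and Piwil1, a PIWI protein, at -10.13 at 21 d.p.p., and Piwil1 at -8.63 and Gtsf1, which acts with PIWI proteins, at -8.19 in adults. At 13 d.p.p. 1 of the 15 was called, where 13 had an unadjusted p below 0.05 and DESeq2 called 11. Of the germ cell markers all 6 fell at 21 d.p.p. (median -6.96), Ddx4 and Mael, a piRNA factor, at -10.20 and -8.40, and 4 fell in adults (median -5.23), Mael and Ddx25, a helicase of spermatids, at -7.77 and -7.74; 1 of the 6 was called at 13 d.p.p., where all 6 had an unadjusted p below 0.05 and DESeq2 called all 6. Chd5 and Btbd18 at 21 d.p.p. lay within the range of these markers, and Atr, Bnc1, Chd7 and Bnc2 lay above all 6 of them.

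Many somatic markers went the other way. At 13 d.p.p. edgeR and DESeq2 called none of them, where an unadjusted p below 0.05 was reached by 1 Sertoli cell, 1 steroidogenic and 2 leukocyte markers and by 0 of the others. Of 6 Sertoli cell markers 4 rose at 21 d.p.p. and the 5 that passed the filter rose in adults, medians 1.55 and 2.69, led by Kitl, the ligand of the germ cell receptor Kit, at 2.40 and 3.07 and Inha, a subunit of inhibin, at 2.25 and 3.56. Of the 2 steroidogenic markers CYP11A1, which makes pregnenolone, rose by 2.65 and 4.77, and the other, Por, was not called at either age. Of 5 smooth muscle and peritubular markers none rose and Tagln fell by 1.04 at 21 d.p.p., and 4 rose in adults, Mylk by 1.82 and Cald1 by 1.42. Of 4 endothelial markers Mcam fell by 0.99 at 21 d.p.p. and Flt1 rose by 1.06 in adults. Of 6 leukocyte markers 3 rose at 21 d.p.p., Mertk, which Sertoli cells express as well, by 1.95 and Il10ra by 1.85, and 2 of the 5 that passed the filter rose in adults, Mertk by 2.71 and Csf1r by 2.32. Bnc2 in adults (3.04) lay within the range of the Sertoli cell markers and also between the 2 steroidogenic markers.

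**Figure D4:**
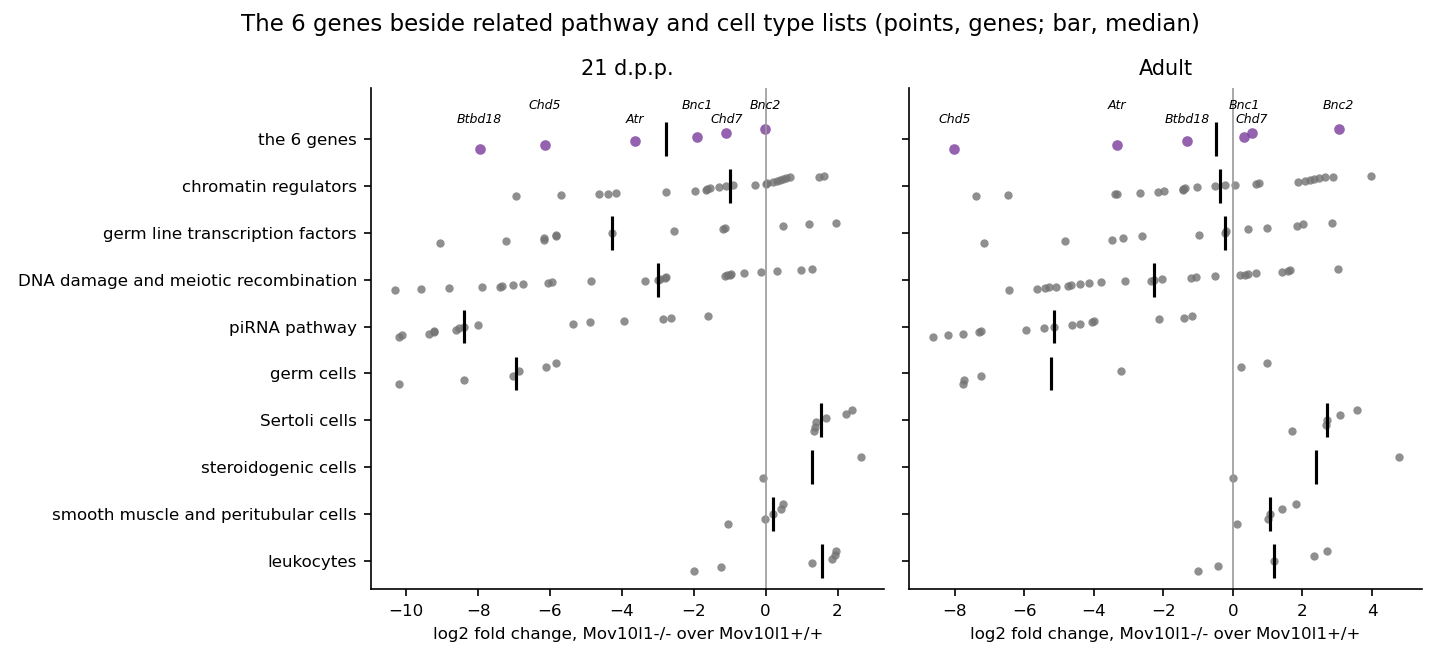
Log2 fold change of the knockout over the wild type at 21 d.p.p. (left) and in adults (right) for the 6 genes (top row, named) and for genes of related lists and cell type markers; each point is 1 gene, spread vertically only to separate points, and the bar is the median. The median of the 6 genes was -2.77 at 21 d.p.p. and -0.49 in adults, while the piRNA pathway lay at -8.40 and -5.13 and the Sertoli cell markers at 1.55 and 2.69.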

How the data were processed

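Total RNA of whole testis was depleted of ribosomal RNA and made into strand-specific libraries by the authors. Their processing notes name STAR 2.7.3a, featureCounts 2.0.0 and bedtools 2.26.0, and the deposited table holds estimated counts per gene, in which 4.72% to 12.7% of values per library were not whole; the authors deposited these counts without normalization. Counts were rounded to whole numbers here. Genotypes were compared within each age with the edgeR 4.0.16 quasi-likelihood test in R 4.3.3 (TMM scaling, filterByExpr, Benjamini-Hochberg over all genes passing the filter, called at an adjusted p below 0.01). Changes with age and genotype-by-age differences were contrasts in 1 fit of the 12 libraries read from both ends, with 1 mean per group. The 9 d.p.p. fit used wild-type replicates 1 and 2. DESeq2 1.42.0 was an alternative. The tests were tested on simulated data.

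The 6 genes, the gene lists and the tests were chosen with earlier results of these data known. Gene symbols and identifiers come from the study's tables of differing genes (1044 genes with a symbol). Named in the text were the 6 genes and Mov10l1, the 3 genes most like each, and, per list, up to 2 genes called higher and 2 called lower with the largest log2 fold change at 21 d.p.p. and in adults. Counting intervals (95%, exact binomial on summed counts) cover counting error only. Replicate numbers were checked as pairs: deviations of same-numbered libraries correlated at 0.07 at 0 d.p.p., -0.13 at 9 d.p.p., 0.18 at 13 d.p.p., -0.23 at 21 d.p.p. and 0.09 in adults (2 pairs each). The numbers were not taken as pairs in the main test of any age. Replicate number as a block was an alternative only, also at 13 d.p.p., where family codes match. Replicates of a group differed by more than sampling noise.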

Additional observations from a re-analysis of the deposited data

Results flagged for a closer look

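The effect of the knockout differed between ages for 3 of the 6 genes, by the test of the difference itself in the fit of 12 libraries. This was 1 gene between 13 and 21 d.p.p., beside 4.04% of all genes tested, and 2 between 21 d.p.p. and adults, beside 29.8%, a share close to that of the 6. For Atr the log2 fold change of the knockout over the wild type was lower at 21 than at 13 d.p.p., a difference of -2.68 (SE 0.272, adjusted p = 0.000278). For Btbd18 it was higher in adults than at 21 d.p.p. by 6.63 (SE 0.651, adjusted p = 1.38e-05), and for Bnc2 by 3.03 (SE 0.354, adjusted p = 5.16e-05). It was likewise higher in adults for 3 of 6 germ cell markers, 4 of 15 piRNA pathway genes and 6 of 13 germ line transcription factors. It was lower for 0, 1 and 0 of these. The adult libraries also differed from the younger ones in the animals' ages of 23 to 65 weeks, and the part of age within the adults was not tested.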

How the results depend on the processing

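At 13 d.p.p. the count of the 6 genes called, 0 as reported, was 1 with RLE size factors, 2 with DESeq2, 3 without a filter on low counts, 3 in the joint fit, 3 with the replicate block and 2 without each library in turn; over all genes 16 were called, with 4 to 477 under these settings. At 21 d.p.p. and in adults it was 3 to 5, but not always of the same genes: with at least 10 counts in every library Chd5 and Btbd18 were not tested at 21 d.p.p. and Chd7 was called (adjusted p = 0.00785), and without adult knockout replicate 2 Chd7 was called (0.00552) and Btbd18 was not (0.0146). The replicate block changed no other call of the 6 genes. With at least 10 counts in every library, Chd5, Btbd18 and Bnc1 were not tested in the fit of 12 libraries, so the counts of genes changed from 21 d.p.p. to adults were 1 in the wild type and 1 in the knockout, and 1 genotype effect differed. DESeq2 called 1 gene, Atr, in the knockout from 13 to 21 d.p.p. From 21 d.p.p. to adults it called 5 in the wild type, with Atr added, and 4 in the knockout, with Chd5 and Atr added. Leaving out 1 library gave 1 to 2 calls for the wild type from 13 to 21 d.p.p. and 1 to 2 for the knockout from 21 d.p.p. to adults. Over all genes, leaving out 1 library gave 2788 to 6219 calls at 21 d.p.p. (5637 as reported), 787 to 2554 (2107) and 278 to 586 (914) from 13 to 21 d.p.p. in wild type and knockout, 5237 to 6441 (7946) and 730 to 937 (2170) from 21 d.p.p. to adults, and 143 to 1090 (670) and 2964 to 3972 (4944) for the genotype effect between these ages; the highest counts under other settings were 1892 without a filter in the knockout from 13 to 21 d.p.p. and 1613 with DESeq2 for the genotype effect over that span. At 0 d.p.p. 316 genes passed the threshold in all, 1321 without a filter, 696 with DESeq2, 1394 with the replicate block and 160 to 788 without 1 library. At 9 d.p.p. 583 did, 1668 without a filter, 1057 with DESeq2, 413 to 2226 without 1 library, 63 with all 5 libraries, 325 with wild-type replicate 3 alone and 0 with the knockout libraries summed. A crossed pairing of replicate numbers, added after the data were seen, called 5 of the 6 genes at 21 d.p.p. and 2087 genes at 9 d.p.p. With wild-type replicate 3 of 9 d.p.p., the median wild-type change of the 6 genes from 0 to 9 d.p.p. went from -0.62 to -0.83 and that of Btbd18 from 0.18 to -0.019. The replicate block was not run for changes with age, since a block holds 1 age. With 2 libraries per group, and 6 and 9 counts in the knockouts for Btbd18 and Chd5 at 21 d.p.p., small differences could not be seen, and the cause of these dependences was not tested.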
